A study of Mus musculus with 9 samples.

Results

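The pentose phosphate pathway and 2 further suppliers of NADPH were followed in 3 tissues of male C57BL/6J mice of wild-type genotype, aged 3 months, namely brown fat, white fat and the soleus, a slow muscle of the calf. The 10 genes were G6pdx, H6pd, Pgls, Pgd, Rpia, Rpe, Tkt, Taldo1, Idh1 and Nnt, and each was taken as the sum of the rows of the deposited expression matrix whose RefSeq accessions belong to that symbol. Of these, 8 were found among the 17753 genes of the matrix and all 8 entered the tests, which covered 9913 genes. Pgls, which encodes the lactonase between the dehydrogenase steps, and Nnt, which encodes the transhydrogenase of the inner mitochondrial membrane, had no row that the reference tables pair with their symbols and were not analysed here. Rows whose accessions these tables do not name were not used, so nothing is said of the level of either gene. The strain carries a deletion within Nnt.

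Each tissue had 3 RNA-seq libraries, untreated as far as the labels say. According to the labels 3 mice were used, but libraries of the same animal are not marked, so p-values measure the spread between these libraries. The sources used here do not name the white fat depot. Expression is in FPKM, a fragment count scaled for transcript length and library size, and is given as mean ± SD (n = 3) or for each replicate in the order 1, 2, 3.

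The pentose phosphate pathway oxidises glucose 6-phosphate in the cytosol. Its oxidative branch reduces NADP+ to NADPH at the steps catalysed by glucose-6-phosphate dehydrogenase and phosphogluconate dehydrogenase, and its reversible branch interconverts sugar phosphates, linking ribose 5-phosphate to glycolysis. Fat tissue uses NADPH for fatty acid synthesis and every cell uses it to keep glutathione and thioredoxin reduced.

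Relative sequencing depth, read from the steps between low FPKM values, spanned 1 to 3.58 over the libraries, and total reads are unknown. Summed FPKM ran from 328326 to 343132 in brown fat, from 214066 to 235019 in white fat and from 309664 to 353399 in soleus. Replicates of a tissue correlated across genes at a Pearson r of 0.990 to 0.996. The labelled tissues held their defining transcripts, with Ucp1 at 3685 ± 377 FPKM in brown fat and 15.0 ± 18.2 in white fat, against 2.06 ± 1.85 in soleus, and Myl2 at 0.955 ± 0.833, 0.00649 ± 0.0112 and 9797 ± 1132 FPKM in the same order. A library in which a few transcripts take much of the total lowers the FPKM of all others. The 20 highest genes held 18.7% to 19% of the sum in brown fat and 14.8% to 16.1% in white fat, against 27.8% to 29.3% in soleus. White fat thus had both the lowest sum and the lowest such share, and the cause of the shifts that follow was not tested. Scaling all libraries to a common total (TPM) moved the median log2 difference of all tested genes between brown and white fat to -0.50, against 0.03 in FPKM as deposited, and that between white fat and soleus to 0.93, against 0.35. Median of ratios scaling moved the median between brown fat and soleus to -0.01, against 0.29, and that between white fat and soleus to -0.02. Among called genes, the fraction on the higher side moved with it, being 22.6% with TPM and 42.3% with upper quartile scaling, against 52.2% as deposited, in brown over white fat. In brown fat over soleus it was 51.1% with upper quartile scaling, 49.3% with median of ratios scaling and 54.2% with quantile normalization, against 67.4%. In white fat over soleus it was 48.7% with median of ratios scaling, 52.4% with quantile normalization and 78.8% with TPM, against 64.7%.

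The stretches of 250 bases before the gene starts of 3 members are shown because their patterns differ in the comparisons that follow. G6pdx separated both kinds of fat from muscle without separating them from each other, H6pd was the member lower in brown than in white fat, and Tkt had the widest range. Sequences are RefSeq's for GRCm38.p6, another build than the mm9 of the deposited values, and were matched by symbol. They read 5′ to 3′ on the strand of the gene. Capitals mark the GC box (GGGCGG) and the antioxidant response element (TGACNNNGC), on either strand.
G6pdx, chrX:74428881-74429130, minus strand: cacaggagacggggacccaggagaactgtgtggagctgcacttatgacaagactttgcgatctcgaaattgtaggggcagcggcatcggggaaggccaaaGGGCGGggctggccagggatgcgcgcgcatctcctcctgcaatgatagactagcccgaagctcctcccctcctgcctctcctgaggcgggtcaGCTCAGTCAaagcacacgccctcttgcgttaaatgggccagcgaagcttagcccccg
H6pd, chr4:150003237-150003486, minus strand: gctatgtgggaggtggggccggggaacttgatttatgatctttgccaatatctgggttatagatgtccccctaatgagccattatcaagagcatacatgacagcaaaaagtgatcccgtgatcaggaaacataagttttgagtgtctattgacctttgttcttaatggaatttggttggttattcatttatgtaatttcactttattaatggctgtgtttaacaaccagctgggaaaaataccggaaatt
Tkt, chr14:30548881-30549130, plus strand: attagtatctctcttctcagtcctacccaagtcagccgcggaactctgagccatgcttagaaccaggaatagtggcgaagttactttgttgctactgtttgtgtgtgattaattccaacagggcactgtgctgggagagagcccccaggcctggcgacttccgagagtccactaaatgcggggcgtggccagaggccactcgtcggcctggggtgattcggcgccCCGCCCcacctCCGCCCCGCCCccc
G6pdx held 1 GC box and the only antioxidant response element match among the members, Tkt held 3 GC boxes close to its start, 2 of which share a base, and H6pd held neither motif. Bases G and C made up 61.2% of the G6pdx stretch, 38.8% of that of H6pd and 59.6% of that of Tkt. The antioxidant response element, the site bound by the factor that Nfe2l2 encodes, was found in 10.2% of 32851 such stretches of all genes, and the GC box in 32.7%. The 9 members with a stretch, Pgls included, had 11 stretches. Of these, 9 held a GC box, belonging to 8 members, and 4 held a CCAAT box (CCAAT, in 33.8% of all stretches), belonging to 4 members. None held an E-box (CACGTG, in 6.02%) or a sterol response element (TCACNCCAC, in 1.05%). The Taldo1 stretch, which held a GC box and a CCAAT box, was not matched to a transcript start. A match is a description of these letters and was not linked to binding.

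The summed FPKM of the 8 genes stood at 2365, 2173 and 2232 in brown fat and at 891, 845 and 743 in white fat, against 105, 95.6 and 90.7 in soleus. The tissues did not overlap. The sum was 0.634% to 0.700% of all FPKM in brown fat and 0.334% to 0.395% in white fat, against 0.0271% to 0.0341% in soleus. In tissue RNA, fewer cells of a type and less RNA per cell cannot be told apart. The plot of FPKM by gene and tissue shows all 72 values behind the descriptions that follow.

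**Figure D1:**
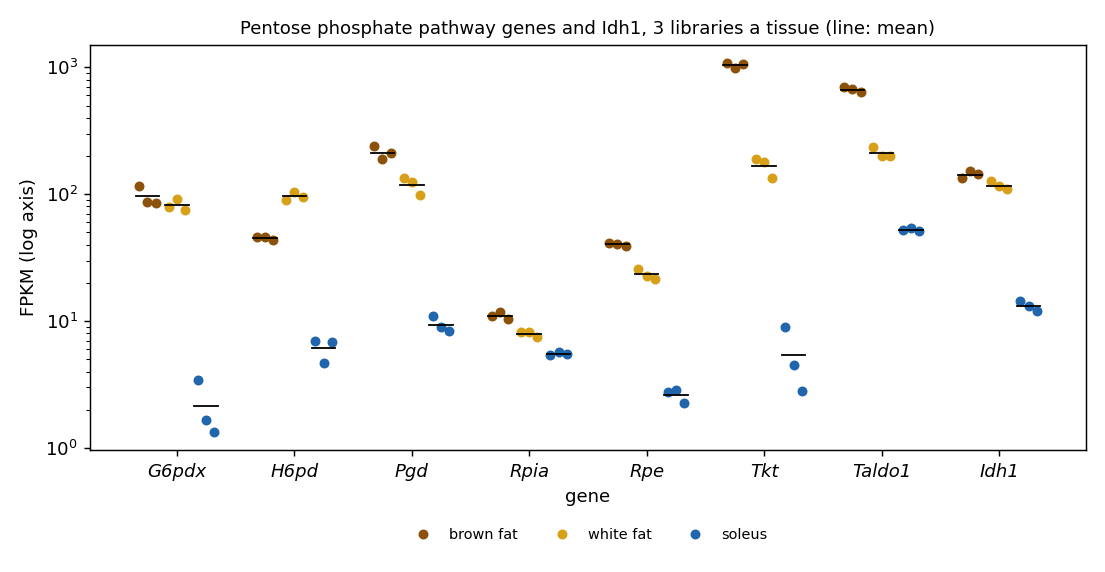
FPKM of the 8 genes on a log axis, with 1 point for each of 3 libraries a tissue (brown fat, white fat, soleus from left to right) and a line at the mean. Soleus lies below both kinds of fat for every gene. From brown fat it lies farthest for Tkt (1041 ± 53.2 FPKM in brown fat, 5.42 ± 3.19 in soleus) and nearest for Rpia (11.0 ± 0.702 in brown fat, 5.54 ± 0.123 in soleus).

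Glucose-6-phosphate dehydrogenase, encoded by G6pdx on the X chromosome, commits glucose 6-phosphate to the pathway and makes its first NADPH. G6pdx stood at 116, 87.3 and 85.7 FPKM in brown fat, at 79.1, 91.4 and 74.7 FPKM in white fat, against 3.45, 1.66 and 1.34 FPKM in soleus. Brown and white fat overlapped, while every soleus library lay far below both. The difference of brown from white fat was 0.23 log2 units on the log2(FPKM + 1) scale used for all tests (95% confidence interval -0.25 to 0.70, limma adjusted p = 0.36). It was -0.36 with TPM rescaling (adjusted p = 0.25) and -0.17 with quantile normalization (adjusted p = 0.52). Against soleus, G6pdx was higher by 4.99 log2 units in brown fat (SE 0.21, limma adjusted p = 3.3e-09) and by 4.77 in white fat (SE 0.21, adjusted p = 4.3e-09), ratios of the mean FPKM of 44.8 and 38.0. G6pd2, an autosomal retroposed copy of G6pdx, stood at 5.71 ± 0.701 FPKM in brown fat and 4.57 ± 0.696 in white fat, against 0.136 ± 0.0824 in soleus. Its ratio to G6pdx was 0.0559 to 0.0644 for brown fat and 0.0524 to 0.0587 for white fat, against 0.0319 to 0.101 in soleus, and how reads were divided between the 2 genes is not given in the sources used here, so both are uncertain to that extent.

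Phosphogluconate dehydrogenase, encoded by Pgd, makes the second NADPH of the oxidative branch and releases the first carbon as carbon dioxide. Pgd stood at 239, 188 and 211 FPKM in brown fat, at 135, 124 and 98.3 FPKM in white fat, against 10.9, 8.94 and 8.31 FPKM in soleus, with no overlap between any pair of tissues. Brown fat was 0.83 log2 units above white fat (SE 0.14, limma adjusted p = 0.00028), a difference that missed the threshold with TPM rescaling (0.25, adjusted p = 0.15) and with quantile normalization (0.21, adjusted p = 0.23), over a range of adjusted p from 6.2e-05 to 0.23. Against soleus, Pgd was higher by 4.36 log2 units in brown fat (SE 0.14, limma adjusted p = 3.6e-10) and by 3.53 in white fat (SE 0.14, adjusted p = 1.8e-09). The ratio of Pgd to G6pdx was 2.06, 2.15 and 2.46 for brown fat and 1.71, 1.36 and 1.32 for white fat, against 3.17, 5.38 and 6.19 in soleus.

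H6pd encodes hexose-6-phosphate dehydrogenase, which runs the same first steps inside the endoplasmic reticulum and feeds NADPH to the steroid-activating enzyme encoded by Hsd11b1. It was the member that was lower in brown than in white fat. H6pd stood at 46.0, 46.1 and 43.5 FPKM in brown fat, at 90.2, 104 and 95.2 FPKM in white fat, against 6.97, 4.67 and 6.85 FPKM in soleus, again with no overlap. The difference was -1.07 log2 units in brown against white fat (SE 0.12, limma adjusted p = 1.5e-05; -1.67 with TPM rescaling, adjusted p = 4.3e-06, range over its alternatives 9.9e-07 to 0.00015), 2.71 in brown fat against soleus (SE 0.12, adjusted p = 5.8e-09) and 3.78 in white fat against soleus (SE 0.12, adjusted p = 4.4e-10). The ratio of H6pd to G6pdx was 0.397, 0.528 and 0.508 for brown fat and 1.14, 1.14 and 1.27 for white fat, against 2.02, 2.81 and 5.10 in soleus. Its log2 value did not overlap between brown and white fat (mean difference -1.32, two-sided exact permutation p = 0.10, which is the smallest that 3 against 3 libraries allow, and 0.12 adjusted over 18 ratio tests). Hsd11b1 itself stood at 102 ± 17.3 FPKM in brown fat and 85.7 ± 4.46 in white fat, against 7.09 ± 1.68 in soleus, and its brown to white difference did not pass (0.24 log2 units, 95% confidence interval -0.09 to 0.57, limma adjusted p = 0.16).

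Ribulose 5-phosphate leaves the oxidative branch by 2 routes. Rpia encodes the isomerase that makes ribose 5-phosphate for nucleotides, and Rpe encodes the epimerase that makes xylulose 5-phosphate for transketolase. Rpia was the most even of the 8 genes, at 11.0, 11.7 and 10.3 FPKM in brown fat, 8.23, 8.15 and 7.51 FPKM in white fat, against 5.43, 5.67 and 5.53 FPKM in soleus. Small as they were, these steps exceeded the spread between libraries. Brown fat was 0.42 log2 units above white fat (SE 0.07, limma adjusted p = 0.00025), though -0.12 with TPM rescaling (adjusted p = 0.19). Rpia was 0.88 log2 units higher in brown fat than in soleus (SE 0.07, adjusted p = 5.6e-07; 0.52 with median of ratios scaling, adjusted p = 3.3e-05) and 0.45 higher in white fat than in soleus (SE 0.07, adjusted p = 0.00010). The white fat difference was 0.04 with median of ratios scaling (adjusted p = 0.58) and 1.04 with TPM rescaling (adjusted p = 2.8e-07), the ends of its range of adjusted p over the alternatives.

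Rpe parted from Rpia in muscle. It stood at 41.1, 40.2 and 39.2 FPKM in brown fat, at 25.8, 22.6 and 21.5 FPKM in white fat, against 2.78, 2.86 and 2.27 FPKM in soleus. The brown to white difference was 0.76 log2 units (SE 0.09, limma adjusted p = 1.6e-05), but 0.20 with TPM rescaling (adjusted p = 0.065, range over its alternatives 3.3e-06 to 0.065). Against soleus it was 3.50 in brown fat (SE 0.09, adjusted p = 5.7e-11) and 2.74 in white fat (SE 0.09, adjusted p = 4.0e-10). Per length, Rpe exceeded Rpia by a ratio of 3.42 to 3.79 in brown fat and 2.77 to 3.13 in white fat, and lay below it in soleus at 0.411 to 0.512.

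Transketolase, encoded by Tkt, moves 2-carbon units between sugar phosphates with thiamine diphosphate as its cofactor. Tkt stood at 1080, 980 and 1061 FPKM in brown fat, at 191, 178 and 135 FPKM in white fat, against 8.97, 4.48 and 2.81 FPKM in soleus. It was the highest member in brown fat, second to Taldo1 in white fat and among the lower members in soleus. The difference was 2.64 log2 units in brown against white fat (SE 0.28, limma adjusted p = 8.1e-06), larger than that of 98.2% of all tested genes. Against soleus it was 7.46 in brown fat (SE 0.28, adjusted p = 1.2e-09) and 4.82 in white fat (SE 0.28, adjusted p = 3.2e-08). Of its paralogs, Tktl1 reached at most 0.0150 FPKM in any library and Tktl2 was listed at 0 in all 9.

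Taldo1 encodes transaldolase, which moves 3-carbon units and closes the reversible branch with transketolase. It stood at 698, 669 and 638 FPKM in brown fat, at 235, 201 and 200 FPKM in white fat, against 52.2, 54.3 and 51.5 FPKM in soleus, where it was the highest member by far. Brown fat exceeded white fat by 1.65 log2 units (SE 0.09, limma adjusted p = 4.3e-08), by 1.07 with TPM rescaling (adjusted p = 1.8e-07) and by 0.73 with quantile normalization (adjusted p = 3.5e-06, range over its alternatives 1.0e-08 to 3.5e-06). Brown fat exceeded soleus by 3.64 (SE 0.09, adjusted p = 5.0e-11) and white fat exceeded soleus by 1.99 (SE 0.09, adjusted p = 4.8e-09). The ratio of Tkt to Taldo1 was 1.55, 1.46 and 1.66 for brown fat and 0.813, 0.884 and 0.677 for white fat, against 0.172, 0.0826 and 0.0545 in soleus. These 2 partners of the reversible branch thus changed places, with Tkt above Taldo1 in every brown fat library and below it in every other library. The log2 ratio did not overlap in any of the 3 comparisons (two-sided exact permutation p = 0.10 each, the smallest possible, 0.12 adjusted over the 18 tests).

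Idh1 encodes the cytosolic isocitrate dehydrogenase, which reduces NADP+ outside the pentose phosphate pathway. It stood at 134, 151 and 143 FPKM in brown fat, at 126, 115 and 110 FPKM in white fat, against 14.5, 13.1 and 12.0 FPKM in soleus. Brown fat lay only slightly above white fat, by 0.28 log2 units (SE 0.09, limma adjusted p = 0.017). That difference turned to -0.31 with TPM rescaling (adjusted p = 0.013) and -0.28 with quantile normalization (adjusted p = 0.025), and it missed the threshold with upper quartile scaling (0.12, adjusted p = 0.32), without brown fat replicate 2 (0.24, adjusted p = 0.069) and without white fat replicate 3 (0.24, adjusted p = 0.072), over a range of adjusted p from 0.0031 to 0.32. Against soleus it was higher by 3.34 log2 units in brown fat (SE 0.09, adjusted p = 1.0e-10) and by 3.06 in white fat (SE 0.09, adjusted p = 2.3e-10).

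Counted together, 6 of the 8 genes were called higher in brown than in white fat at an adjusted p under 0.05, against 38.0% of all tested genes, and 1 was called lower, against 34.8%. With TPM rescaling the counts were 2 higher, Tkt and Taldo1, beside 18.1% of all tested genes, and 2 lower, H6pd and Idh1, beside 61.9%. All 8 were higher in brown fat than in soleus, where 52.9% of all tested genes were higher and 25.6% lower. All 8 were also higher in white fat than in soleus, where 54.5% of tested genes were higher and 29.7% lower. The median log2 difference of the 8 genes was 0.59 in brown against white fat, 3.57 in brown fat against soleus and 3.29 in white fat against soleus, beside 0.03, 0.29 and 0.35 over all tested genes. The last 2 comparisons share the soleus libraries. In brown fat against soleus, 7 of the 8 lay above at least 96.4% of all tested genes, and Rpia lay above 75.1% of them.

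**Figure D2:**
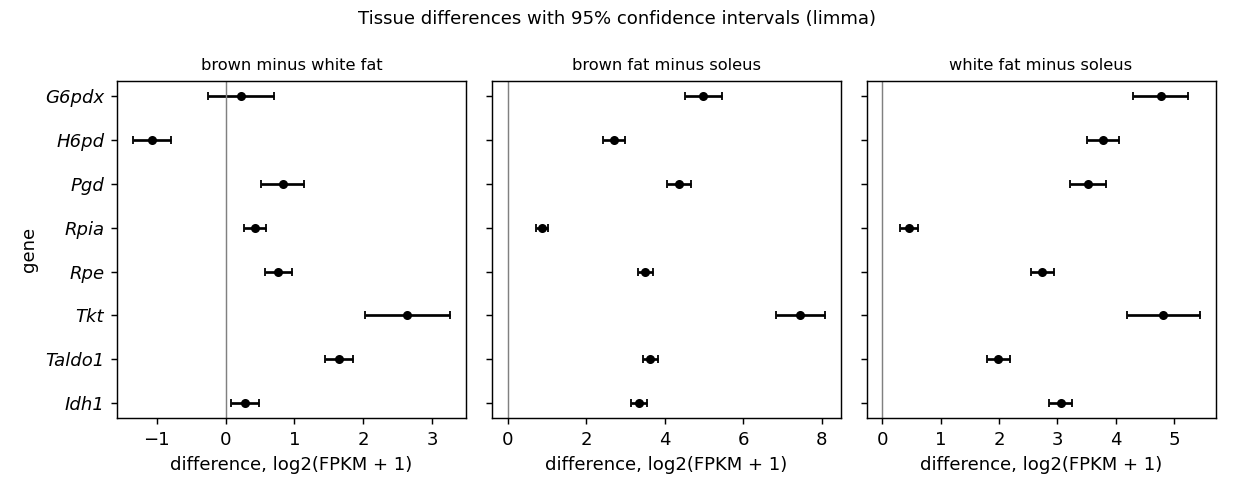
Differences of log2(FPKM + 1) with 95% confidence intervals from the fit of all 9 libraries, for brown minus white fat, brown fat minus soleus and white fat minus soleus. Only the interval of G6pdx in the first panel spans 0 (-0.25 to 0.70), and H6pd in that panel is the only point below 0 (-1.07).

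**Figure D3:**
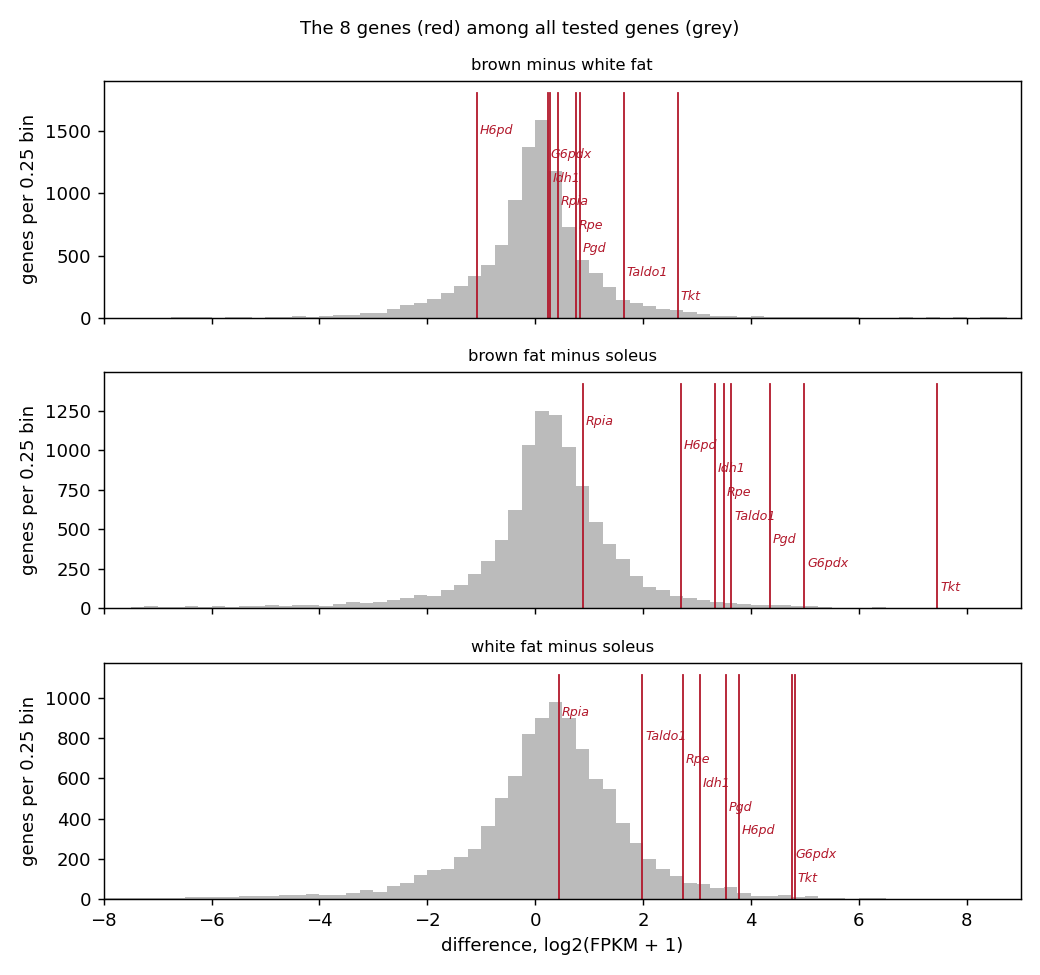
Differences of all 9913 tested genes in bins of 0.25 log2 units (grey; the axis runs from -8 to 9) with the 8 genes as red lines, for the same 3 comparisons. In brown against white fat the 8 genes run from -1.07 to 2.64 around a median of 0.03 for all genes, and against soleus all but Rpia lie in the upper tail.

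Levels of cell type markers are set beside these differences. The 4 brown fat markers summed to 5629 to 6484 FPKM in brown fat and 5.40 to 62.8 in white fat, against 8.49 to 14.8 in soleus, and the 4 white fat markers to 107 to 141, 3137 to 4498 and 16.7 to 112 FPKM in the same order. The 4 adipocyte markers found of 5 (Adipoq, Cidec, Lipe and Pparg) summed to 2084 to 2397 FPKM in brown fat and 4718 to 5223 in white fat, against 28.4 to 147 in soleus. They did not move as one between brown and white fat. Adipoq (mean 1008 against 2876 FPKM) and Cidec (602 against 1598) were lower in brown fat. Pparg was higher there (149 against 66.5), and Lipe was not called (517 against 469, limma adjusted p = 0.62). In soleus replicates 1, 2 and 3 the 4 adipocyte markers summed to 147, 58.0 and 28.4 FPKM. G6pdx at 3.45, 1.66 and 1.34, Tkt at 8.97, 4.48 and 2.81, Pgd at 10.9, 8.94 and 8.31 and Idh1 at 14.5, 13.1 and 12.0 FPKM had the same order of libraries, whereas H6pd, Taldo1, Rpia and Rpe did not. Relative depth, at 2.35, 1.66 and 1.45, had this order too. An order of 3 libraries is only a description, and the share of all tested genes with it was not counted. The part of fat cells or of depth in the soleus values was not tested. Without soleus replicate 1 all 8 genes were still higher in each kind of fat than in soleus, with G6pdx at 5.27 log2 units in brown and 5.04 in white fat and Tkt at 7.83 and 5.20. In that fit 53.1% of all tested genes were higher in brown fat than in soleus, and 55.0% were higher in white fat than in soleus. The 6 macrophage markers found of 8 summed to 44.4 to 52.7 FPKM in brown fat and 409 to 522 in white fat, against 30.9 to 42.6 in soleus, and all 6 were lower in brown fat relative to white fat. Their part in the white fat values of H6pd and the other members was not tested. The 5 endothelial markers summed to 82.8 to 86.6 FPKM in brown fat and 38.5 to 60.1 in white fat, against 40.4 to 44.5 in soleus, and the 3 mesothelial markers found of 4 to at most 0.0406 for brown fat and 50.7 to 78.0 for white fat, against at most 1.68 in soleus, with Wt1 listed at 0 in brown fat. The 5 muscle markers found of 7 summed to at most 6.28 FPKM in brown fat and 0.651 in white fat, against 19636 to 23328 in soleus. The erythroid markers Alas2 and Slc4a1, the 2 found of 4, summed to 4.59 to 7.76 FPKM in brown fat and 6.29 to 11.6 in white fat, against 1.33 to 2.39 in soleus.

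The order of the levels differed between the tissues. In brown fat it ran Tkt, Taldo1, Pgd, Idh1, G6pdx, H6pd, Rpe and Rpia, with no overlap of libraries between neighbours. In white fat it ran Taldo1, Tkt, Pgd, Idh1, H6pd, G6pdx, Rpe and Rpia, and Pgd overlapped Idh1 and H6pd as H6pd overlapped G6pdx, while the lowest Tkt and the highest Pgd library both stood at 135 FPKM. In soleus it ran Taldo1, Idh1, Pgd, H6pd, Rpia, Tkt, Rpe and G6pdx, and Tkt overlapped Pgd, H6pd, Rpia, Rpe and G6pdx through its wide range, as H6pd did Rpia and Rpe did G6pdx. As a share of the members' summed FPKM, Tkt and Taldo1 held 75.2% to 76.1% in brown fat and 44.9% to 47.8% in white fat, against 58.1% to 61.5% in soleus. Tkt made up 46.1% ± 1.28, 20.2% ± 1.77 and 5.43% ± 2.79 in these tissues and Taldo1 29.6% ± 1.10, 25.7% ± 1.65 and 54.4% ± 4.17 (SD, n = 3 each). The oxidative genes G6pdx and H6pd held 4.25% ± 0.568 and 2.01% ± 0.0998 of the sum in brown fat and 9.92% ± 0.980 and 11.7% ± 1.43, their highest shares, in white fat, against 2.17% ± 0.971 and 6.35% ± 1.36 in soleus. Rpia made up 0.489% ± 0.0443 of the sum in brown fat and 0.967% ± 0.0433 in white fat, against 5.73% ± 0.503 in soleus.

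**Figure D4:**
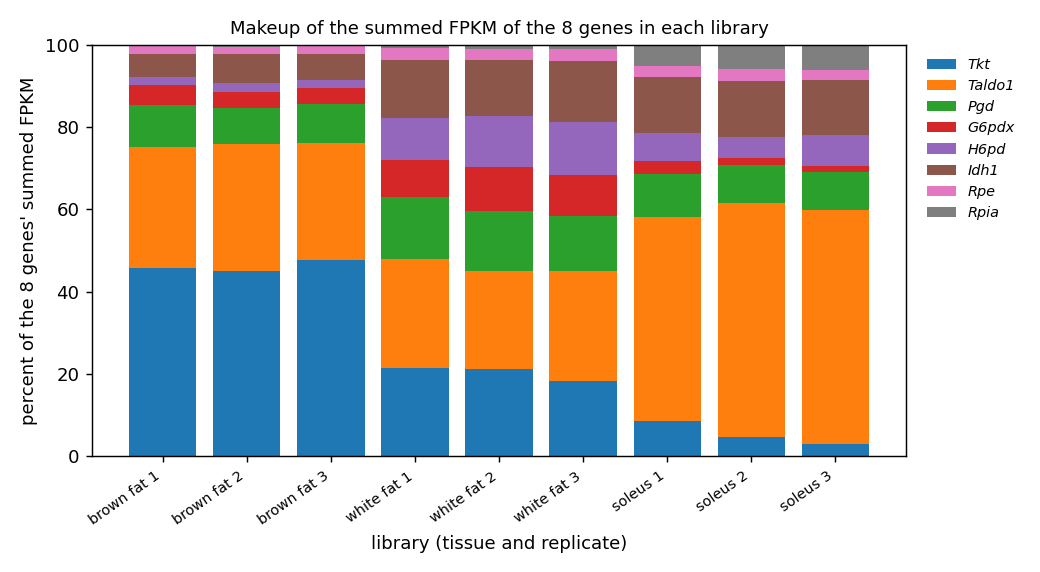
Percent of the summed FPKM of the 8 genes that each gene holds, as stacked bars for the 9 libraries. Tkt takes 46.1% ± 1.28 of the bars of brown fat and 20.2% ± 1.77 of those of white fat, against 5.43% ± 2.79 of those of soleus, where Taldo1 takes 49.6% to 56.8%.

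Outside the pathway, the isocitrate dehydrogenases divided by compartment and cofactor. Idh2 encodes the mitochondrial enzyme that also makes NADPH. It stood at 183, 244 and 219 FPKM in brown fat, 65.5, 46.8 and 58.4 FPKM in white fat, against 591, 688 and 713 FPKM in soleus. Soleus was highest for Idh2 and lowest for Idh1, while brown fat exceeded white fat for both, for Idh1 only slightly and not under every scaling. Idh2 was 1.91 log2 units higher in brown than in white fat (SE 0.15, limma adjusted p = 5.7e-07), 1.62 lower in brown fat than in soleus (log2 difference -1.62, SE 0.15, adjusted p = 1.5e-06) and 3.53 lower in white fat than in soleus (log2 difference -3.53, SE 0.15, adjusted p = 2.5e-09). The ratio of Idh1 to Idh2 was 0.732, 0.618 and 0.652 for brown fat and 1.93, 2.47 and 1.89 for white fat, against 0.0246, 0.0190 and 0.0169 in soleus, with no overlap (two-sided exact permutation p = 0.10 in each of the 3 comparisons, 0.12 adjusted). White fat was the tissue in which the cytosolic transcript exceeded the mitochondrial one. The NAD-linked subunits Idh3a, Idh3b and Idh3g of the citrate cycle were highest in brown fat, at 998 ± 122, 982 ± 38.2 and 886 ± 31.5 FPKM, against 81.9 ± 4.79, 106 ± 7.34 and 122 ± 10.6 FPKM in white fat, and all 3 passed in each comparison. In soleus they stood at 272 ± 15.0, 398 ± 25.5 and 275 ± 9.37 FPKM, above white fat. Such calls were common, as brown relative to white fat had 38.0% of all tested genes called higher and 34.8% lower. Brown fat relative to soleus had 52.9% and 25.6%, and white fat relative to soleus had 54.5% and 29.7%.

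Other NADPH sources and genes related to them were a list of 13, of which 10 were found and 8 tested. Not all of their enzymes make mainly NADPH. In brown against white fat 3 were higher and 3 lower (median 0.29 log2 units). For brown fat against soleus the counts were 4 and 2 (median 0.64), or 4 and 4 with upper quartile, median of ratios or quantile scaling. Of all tested genes these scalings called 38.8% and 37.2%, 38.0% and 39.0%, and 41.8% and 35.2%, in that order. White fat against soleus had 5 and 2 (median 1.42). Over all tested genes the shares were 38.0% and 34.8%, 52.9% and 25.6%, and 54.5% and 29.7% in the same order. Me1, the cytosolic malic enzyme, stood at 152, 74.9 and 118 FPKM in brown fat, at 82.6, 104 and 61.9 FPKM in white fat, against 11.6, 12.2 and 11.7 FPKM in soleus. Brown and white fat overlapped (0.45 log2 units, 95% confidence interval -0.08 to 0.97, limma adjusted p = 0.11), and both lay above soleus, as for G6pdx. The mitochondrial malic enzyme gene Me3 followed another order, at 13.0 ± 1.03 FPKM in brown fat and 0.267 ± 0.0592 in white fat, against 12.1 ± 0.623 in soleus, 3.46 log2 units higher in brown than in white fat (SE 0.08, adjusted p = 2.6e-10). Me2 encodes a further mitochondrial form, which works mainly with NAD+. It stood at 3.60 ± 0.275 FPKM in brown fat and 8.34 ± 0.906 in white fat, its highest level, against 1.04 ± 0.219 in soleus. Aldh1l1, whose enzyme makes NADPH from a folate intermediate, stood at 30.0 ± 5.43 FPKM in brown fat and 60.4 ± 9.08 in white fat, against 2.20 ± 0.368 in soleus. Mthfd2, whose enzyme of mitochondrial folate metabolism also works mainly with NAD+, stood at 0.876 ± 0.149, 4.63 ± 1.74 and 2.52 ± 0.323. NAD kinase, encoded by Nadk, makes NADP+ itself. Nadk stood at 101, 100 and 89.3 FPKM in brown fat, at 68.8, 60.8 and 63.5 FPKM in white fat, against 9.14, 7.85 and 7.69 FPKM in soleus, 3.41 log2 units higher in brown fat than in soleus (SE 0.09, adjusted p = 7.3e-11). Its brown to white difference of 0.58 log2 units (SE 0.09, adjusted p = 0.00014) was lost with TPM rescaling (adjusted p = 0.99).

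**Figure D5:**
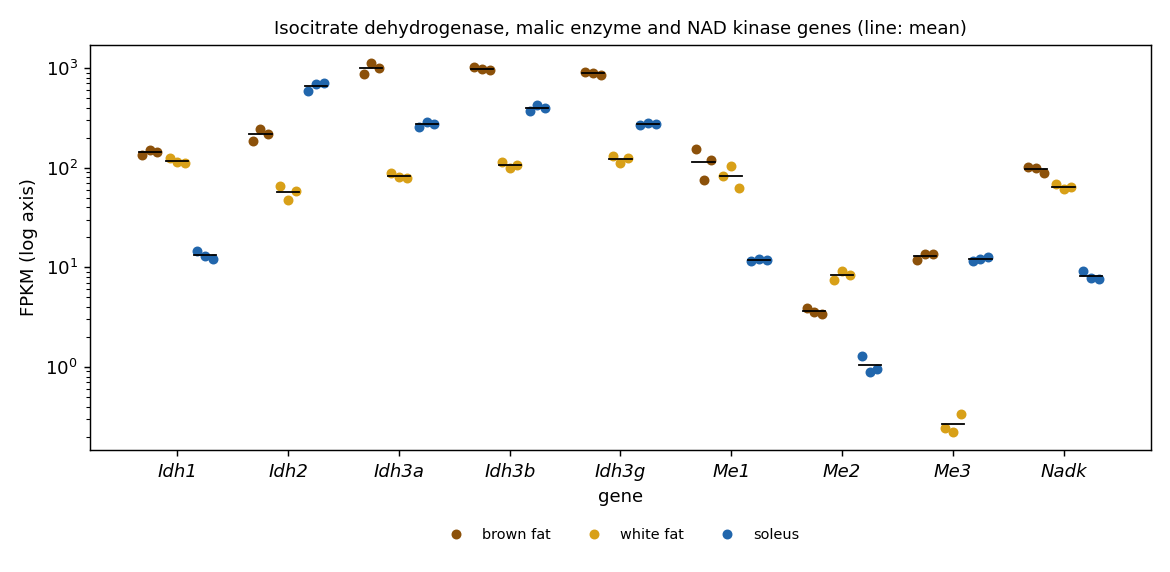
FPKM of 3 kinds of isocitrate dehydrogenase gene, of the malic enzyme genes and of Nadk on a log axis, with 1 point a library and a line at the mean. Idh1, Me1 and Nadk are low in soleus, Idh2 is highest there (664 ± 64.4 FPKM), and Me3 is low only in white fat (0.267 ± 0.0592 FPKM).

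Genes that adjoin the pathway were a list of 20, of which 17 were found and 14 tested. In brown against white fat 7 were higher and 5 lower (3 and 6 with TPM rescaling, 4 and 5 with upper quartile scaling). Upper quartile scaling called 30.1% of all tested genes higher and 41.1% lower in that comparison. For brown fat against soleus 10 were higher and none lower (7 and 3 with median of ratios or upper quartile scaling). Of all tested genes these scalings called 38.0% and 39.0%, and 38.8% and 37.2%, in that order. White fat against soleus had 10 higher and 3 lower. Over all tested genes the shares were 38.0% and 34.8% (18.1% and 61.9% with TPM), 52.9% and 25.6%, and 54.5% and 29.7% in the same order. Hk2, a hexokinase gene that feeds glucose 6-phosphate to glycolysis and to this pathway alike, did not share the order of G6pdx. It stood at 64.1 ± 8.53 FPKM in brown fat and 16.4 ± 0.274 in white fat, against 60.4 ± 7.62 in soleus, and Gpi1, which encodes the isomerase that draws glucose 6-phosphate into glycolysis, at 148 ± 7.59, 37.2 ± 3.18 and 90.9 ± 4.64 FPKM. Pgm1, encoding phosphoglucomutase, had the highest mean of the list, at 135 ± 10.7, 78.1 ± 4.68 and 132 ± 7.58 FPKM. Shpk, which encodes the kinase of sedoheptulose, a sugar of the reversible branch, stood at 6.55 ± 0.727 FPKM in brown fat and 5.23 ± 0.259 in white fat, against 0.428 ± 0.0478 in soleus, 2.40 log2 units higher in brown fat than in soleus (SE 0.08, limma adjusted p = 6.2e-10) and 2.12 higher in white fat than in soleus (SE 0.08, adjusted p = 1.6e-09). Prps1 and Prps2, whose enzymes take ribose 5-phosphate on to nucleotide synthesis, were lower in brown fat relative to white fat, with differences of -1.28 (SE 0.10, adjusted p = 4.9e-07) and -1.50 log2 units (SE 0.07, adjusted p = 1.9e-08). Prps1 stood at 14.0 ± 0.829 FPKM in brown fat and 35.6 ± 4.69 in white fat, against 14.2 ± 0.544 in soleus, and Prps2 at 0.703 ± 0.0224, 3.84 ± 0.304 and 0.694 ± 0.0925 FPKM.

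Of a list of 13 genes of fat and sterol synthesis, many of whose enzymes use NADPH, 12 were tested. In brown fat relative to white fat 3 were higher and 4 lower (3 and 9 with TPM rescaling). Against soleus 10 were higher and 2 lower in brown fat, and 11 were higher and 1 lower in white fat. Over all tested genes the shares were 38.0% and 34.8% (18.1% and 61.9% with TPM), 52.9% and 25.6%, and 54.5% and 29.7% in the same order. Fasn, the fatty acid synthase gene and the main consumer of this NADPH in fat, was listed at 0 in all 3 brown fat libraries, which can be a failed estimate and is 1 of the lower calls in both brown fat comparisons. Fasn stood at 338, 389 and 208 FPKM in white fat, against 10.9, 3.71 and 2.24 FPKM in soleus. Hsd17b12, of fatty acid elongation, stood at 209 ± 6.57 FPKM in brown fat and 77.5 ± 12.3 in white fat, against 5.37 ± 1.18 in soleus, Por, which passes electrons from NADPH to cytochromes P450, at 104 ± 8.08, 108 ± 4.81 and 8.84 ± 0.880, and Tecr, also of elongation, at 163 ± 12.9, 82.8 ± 6.51 and 214 ± 20.3 FPKM. The Cyb5r3 gene of cytochrome b5 reductase, an enzyme that uses NADH, was lower in brown fat, at 45.2 ± 6.13 FPKM against 85.0 ± 4.31 in white fat. In soleus Cyb5r3 stood at 22.6 ± 0.0883 FPKM.

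Of 14 tested genes of 16 that use NADPH in redox defence and related reductions, 5 were higher and 6 lower in brown fat relative to white fat. With TPM rescaling the numbers were 4 and 8. In brown fat against soleus 9 were higher and 3 lower. The same numbers held in white fat against soleus (7 and 5 with median of ratios scaling, 11 and 1 with TPM). Over all tested genes the shares were 38.0% and 34.8% (18.1% and 61.9% with TPM), 52.9% and 25.6%, and 54.5% and 29.7% in the same order. For white fat against soleus they were 40.9% and 43.0% with median of ratios scaling and 69.9% and 18.9% with TPM. Txnrd2, the mitochondrial thioredoxin reductase gene, stood at 35.3 ± 2.34 FPKM in brown fat and 9.08 ± 0.654 in white fat, against 6.11 ± 0.203 in soleus, and Cbr1, a carbonyl reductase gene, at 76.1 ± 6.08, 32.9 ± 6.51 and 20.5 ± 2.63. Cyba and Cybb, subunits of the phagocyte oxidase that burns NADPH, stood at 6.65 ± 0.686 and 0.719 ± 0.223 FPKM in brown fat and 44.0 ± 10.2 and 6.70 ± 1.33 FPKM in white fat, against 11.6 ± 0.987 and 0.490 ± 0.105 FPKM in soleus. Both were lower in brown fat relative to white fat, as the macrophage markers were, whose part was not tested. Blvrb, a flavin and biliverdin reductase gene, stood at 48.6 ± 1.30, 43.5 ± 3.26 and 7.91 ± 0.155 FPKM. Nqo1, a quinone reductase gene, was lower in both kinds of fat, at 0.871 ± 0.203 FPKM in brown fat and 2.39 ± 0.481 in white fat, against 16.7 ± 0.990 in soleus. Akr1b3, the aldose reductase gene, stood at 3.56 ± 0.492 and 4.43 ± 0.474 FPKM in the same tissues, against 7.26 ± 0.688 in soleus, and Fdxr, the gene of mitochondrial ferredoxin reductase, at 8.16 ± 0.260 and 3.51 ± 0.564, against 5.97 ± 0.682.

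The 9 genes of regulators known to act on these enzymes were all tested. In brown against white fat 5 were higher and 1 lower (2 and 5 with TPM rescaling, 3 and 1 with upper quartile scaling). Upper quartile scaling called 30.1% of all tested genes higher and 41.1% lower there. For brown fat against soleus the counts were 5 and 1 (4 and 3 with median of ratios scaling). White fat against soleus had 4 and 4 (2 and 5 with median of ratios scaling, 5 and 2 with TPM). Median of ratios scaling called 38.0% and 39.0% of all tested genes in brown fat against soleus. In white fat against soleus it called 40.9% and 43.0%, and TPM called 69.9% and 18.9%. Over all tested genes the shares were 38.0% and 34.8% (18.1% and 61.9% with TPM), 52.9% and 25.6%, and 54.5% and 29.7% in the same order. Srebf1 encodes a driver of lipid synthesis genes. It stood at 67.0 ± 12.0 FPKM in brown fat and 65.2 ± 8.69 in white fat, against 5.13 ± 0.495 in soleus. Like G6pdx, it was not called between brown and white fat (0.03 log2 units, limma adjusted p = 0.86). It was 3.46 log2 units higher in brown fat than in soleus (SE 0.14, limma adjusted p = 2.1e-09) and 3.43 higher in white fat than in soleus (SE 0.14, adjusted p = 2.2e-09). Mlxipl, which encodes the carbohydrate response factor ChREBP, stood at 73.6 ± 12.6 FPKM in brown fat and 13.1 ± 1.64 in white fat, against 37.3 ± 2.35 in soleus. Its partner gene Mlx stood at 19.7 ± 2.62, 8.26 ± 0.733 and 6.50 ± 0.583 FPKM, and its paralog Mlxip at 5.14 ± 0.498, 4.75 ± 0.567 and 10.2 ± 1.51. Srebf2, which encodes the factor of sterol synthesis, stood at 12.6 ± 0.249, 10.7 ± 0.658 and 5.42 ± 0.626 FPKM, and Trp53, the p53 gene, at 6.88 ± 0.396, 8.47 ± 0.377 and 5.93 ± 0.831. Nfe2l1 had the highest mean of these regulators, at 113 ± 6.30, 89.3 ± 2.32 and 125 ± 22.6 FPKM. Nfe2l2, whose product NRF2 acts on the antioxidant response element, stood at 25.4 ± 0.610, 24.1 ± 0.537 and 21.3 ± 2.12 FPKM, a small difference between brown fat and soleus (0.25 log2 units, SE 0.08, adjusted p = 0.013) that was -0.15 with median of ratios scaling (adjusted p = 0.075).

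Likeness of pattern was measured as the root mean square difference of centred log2(FPKM + 1) values over the 9 libraries, which form only 3 tissues, and it is given as a description. Nearest to Tkt stood Pygl at 0.15 log2 units, with 359 ± 7.73 FPKM in brown fat and 67.9 ± 6.17 in white fat, against 1.41 ± 0.940 in soleus. Apoc1 and Slc36a2 followed at 0.28 each. Nearest to G6pdx were Cd1d1 and Pde3b at 0.16 and Aldh1a7 at 0.18, and Pde3b stood at 66.0 ± 4.55, 66.9 ± 4.38 and 1.15 ± 0.778 FPKM. Nearest to H6pd were Abca1 at 0.17 and Itih5 and Bche at 0.19, all higher in white than in brown fat. Close to Rpe stood Aifm2 at 0.10 and Nadk at 0.11. Among the members themselves the closest pair was Rpe and Idh1 at 0.21 and the farthest Tkt and Rpia at 2.76.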

How the data were processed

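Transcripts of 3 brown fat, 3 white fat and 3 soleus samples were measured by RNA-seq. The authors deposited FPKM values per RefSeq row, made with TopHat 1.4.1 and Cufflinks 2.0.1 on mm9 per the submitters' processing notes; filters and strand handling were not given in the sources used here. FPKM carries no read totals, so no count test was run, and relative depth was estimated as the commonest ratio between 2 libraries of values up to 0.3 FPKM. Of 18401 rows, a RefSeq gene table gave symbols to 18305 and GENCODE to a further 38; 55 without a symbol and 3 with several were left out. Rows of a symbol were summed. H6pd had 2 rows, the second under 1 FPKM.

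All 9 libraries were fitted on log2(FPKM + 1) in limma 3.58.1 (R 4.3.3) with the spread modelled as a trend on mean expression (6 residual degrees of freedom). Genes entered if 3 or more libraries reached 1 FPKM. This scale understates changes of low genes. Tests were two-sided with Benjamini-Hochberg adjustment over 9913 genes within each comparison, and calls had an adjusted p under 0.05. The fit was tested on simulated data. Ratios of 2 genes were tested by exact permutation over libraries. The members and lists were chosen with earlier results of these data known. Named are all members found and, from each list, the 2 called genes of largest difference per direction and comparison and the gene of highest mean. Me1, Tktl1, Tktl2 and Nfe2l2 were added after their values were seen. Motifs were searched with Python 3.11.15 in the 250 bases before RefSeq gene starts. Alternatives covered the pseudocount, filter, scaling, libraries, variance model, replicate number as a block, row choice and each library left out.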

Additional observations from a re-analysis of the deposited data

How the results depend on the processing

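Over 22 alternatives, the 24 member differences kept direction and call in 516 cases, lost the call in 7 and turned direction in 5. TPM rescaling gave 2 members higher and 2 lower in brown relative to white fat, in place of 6 and 1, and quantile normalization gave 2 lower. Of all tested genes, 18.1% were higher and 61.9% lower with TPM, and 40.4% and 34.6% with quantile normalization. Idh1 turned to -0.31 with TPM and -0.28 with quantile normalization, Rpia to -0.12 with TPM, and G6pdx, which was not called, to -0.36 with TPM and -0.17 with quantile normalization, and the cause was not tested. Leaving out single libraries gave 5 to 6 members higher and 1 lower in brown relative to white fat, and 8 higher with 0 lower in either fat against soleus. Of all tested genes, 34.5% to 39.3% were then higher and 29.4% to 35.8% lower in brown relative to white fat. Against soleus, 50.6% to 54.9% were higher in brown fat and 50.6% to 56.5% in white fat. With the replicate number as a block no member's call changed, with 6 and 1 members and 3643 higher and 3374 lower genes in brown against white fat. Same-numbered libraries deviated together at correlations of -0.22 to 0.08, so the numbers are not shown to pair the samples. Without read totals, how far depth limits low genes is unknown. A gene listed at 0, as Fasn in brown fat and Tktl2 in every library, was given no fold change.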
